A study of Mus musculus with 11 samples.

Results

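Proximal T cell receptor (TCR) signalling was followed through 9 genes chosen by name: the kinases Lck, Fyn and Zap70, the adaptors Lat, Lcp2 and Themis, and the enzymes Plcg1, Itpkb and Rasgrp1. A gene was measured where a probe set of the array carried its symbol alone in the platform annotation. This held for 8 of the 9, with 1 probe set each, among 19938 genes with such a probe set. Lck was not analysed here. All 8 probe sets lay above the lowest value of the table on all 11 arrays, so no filter on low values removed a member.

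When the TCR of a thymocyte binds its ligand, Src family kinases (Lck and Fyn) phosphorylate the CD3 and zeta chains, and ZAP-70 docks on them. ZAP-70 then phosphorylates LAT, a membrane scaffold, and SLP-76 (encoded by Lcp2), which together recruit phospholipase C gamma 1 (Plcg1). This enzyme makes inositol trisphosphate, which releases calcium, and diacylglycerol, which draws in the RAS activator RasGRP1. Itpkb phosphorylates inositol trisphosphate, and Themis tunes signal strength. Thymocytes use this cascade for positive and negative selection.

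The study deleted Dnmt3b, a de novo DNA methyltransferase, in mice that develop MYC-induced thymic lymphoma. RNA from the thymus of FVB mice, 300 ng per sample, was measured on 11 Affymetrix arrays, and every group carried EμSR-tTA, a tetracycline-controlled activator made in blood cells, and the reporter Rosa26LOXPEGFP. Normal thymocytes (n = 3, harvested at day 24) also carried Teto-Cre, and were Dnmt3b+/+ without Teto-MYC. Wild-type lymphomas (n = 3) carried Teto-MYC and Dnmt3bF/F without Cre. Dnmt3b-deficient lymphomas (n = 3) and pre-tumor thymocytes (n = 2, day 24) carried Teto-MYC and Teto-Cre and are labelled Dnmt3b-/-. Pre-tumor thymi were sorted for EGFP, which marks cells in which Cre has acted, and tumors were lysed unsorted when disease became apparent. Whether the normal thymocytes were sorted was not clear from the labels. Compared with normal thymocytes, the MYC transgene therefore goes with Cre status and the Dnmt3bF/F allele in the wild-type lymphomas. In the other groups it goes with Dnmt3b status, in both lymphomas also with age and disease, and sorting may differ. These cannot be told apart. The labels call the samples biological replicates without naming the animals, and p-values measure the spread between these samples.

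The values are log2 signals with a floor of 3.32, and array medians lay between 4.55 and 4.62. The Dnmt3b probe set gave 5.07 to 5.70 over the 11 samples and differed by -0.17 between the tumor genotypes (limma adjusted p = 0.899). The sources used here do not say if its probes lie in the deleted exons, so it does not check the genotype labels. T cell markers (6 genes) were well above the floor in all groups, with a list mean of 10.03 to 10.14 in normal thymocytes, 9.04 to 9.12 in pre-tumor thymocytes, 8.58 to 9.01 in wild-type lymphomas and 8.25 to 8.57 in Dnmt3b-deficient lymphomas. Markers of double-positive thymocytes (9 of 10 measured) had means of 9.72 to 9.93, 7.59 to 8.64, 5.63 to 6.39 and 6.48 to 6.80 in the same order.

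The upstream sequences of the members differed in their content of CpG dinucleotides, the sites that DNA methyltransferases modify. RefSeq start sites (GRCm38.p6, the C57BL/6J reference and not FVB) gave 11 windows of 250 bases for the 8 genes, 3 of them for Zap70 and 2 overlapping ones for Themis. The windows of Lat, Fyn and Itpkb, and the later ones of Zap70 and Themis, lie partly or wholly inside the annotated span of their gene. Over all 32851 windows of the same length the median was 6 CpGs and the 75th percentile 16. The windows of Rasgrp1, Plcg1 and Fyn held 21 CpGs each, as many or more of which stood in 16.3% of all windows. Those of Zap70 held 6, 2 and 7, Lat 6, Itpkb 4, Themis 1 and 1, and Lcp2 0. Shown here are 4 windows, 5′ to 3′ on the gene's strand with CpGs in capitals: Plcg1 and Lat, which fell in each group with the MYC transgene, and Rasgrp1 and Lcp2, whose samples did not overlap between the tumor genotypes. The windows are chr2:160731060-160731309 (plus strand), chr7:126369569-126369818 (minus strand), chr2:117342878-117343127 (minus strand) and chr11:34046678-34046927 (plus strand).
Plcg1: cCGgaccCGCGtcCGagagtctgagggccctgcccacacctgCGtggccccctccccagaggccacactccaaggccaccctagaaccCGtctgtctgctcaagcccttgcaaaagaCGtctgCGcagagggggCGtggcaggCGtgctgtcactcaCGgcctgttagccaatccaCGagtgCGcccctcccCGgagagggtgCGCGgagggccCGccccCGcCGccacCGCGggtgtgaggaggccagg
Lat: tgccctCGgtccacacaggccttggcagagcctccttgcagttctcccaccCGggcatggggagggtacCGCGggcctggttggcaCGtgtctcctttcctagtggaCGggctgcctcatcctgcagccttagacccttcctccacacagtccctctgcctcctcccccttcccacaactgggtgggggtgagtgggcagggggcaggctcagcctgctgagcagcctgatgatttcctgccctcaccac
Rasgrp1: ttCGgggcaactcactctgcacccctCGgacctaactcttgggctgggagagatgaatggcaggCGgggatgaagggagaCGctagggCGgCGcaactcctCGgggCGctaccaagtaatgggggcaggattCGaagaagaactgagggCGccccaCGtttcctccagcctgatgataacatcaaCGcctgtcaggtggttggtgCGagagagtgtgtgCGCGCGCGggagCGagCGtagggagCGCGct
Lcp2: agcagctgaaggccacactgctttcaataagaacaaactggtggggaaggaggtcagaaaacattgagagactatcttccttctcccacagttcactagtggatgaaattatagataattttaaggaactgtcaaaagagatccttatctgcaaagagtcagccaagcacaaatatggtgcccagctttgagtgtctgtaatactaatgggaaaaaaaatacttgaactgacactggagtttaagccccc

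The E-box CACGTG, the sequence that MYC and MAX bind, was searched on both strands. It occurred in the Lat window, 166 bases before the RefSeq start used, and in no other member window, against 6.02% of all windows. That start lies inside the annotated Lat gene, so the match is nearer to the outer end of the gene. The RUNX core TGTGGT occurred in 1 of the 11 windows (Zap70) against 14% of all. The E protein site CAGCTG occurred in 1 (Lcp2) against 13%, and the ETS core GGAAGT in 2 (Zap70 and Itpkb) against 19.7%. A match is a description of the letters, and methylation of these windows was not analysed here.

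Against normal thymocytes, the adaptor Lat and the phospholipase Plcg1 fell in each of the 3 MYC groups, by 2.26- to 2.87-fold. The kinases Zap70 and Itpkb fell in all 3 groups too, by 1.46- to 4.26-fold. The kinase Fyn and the RAS activator Rasgrp1 fell in the Dnmt3b-deficient lymphomas. No member rose. In the wild-type lymphomas 4 of 8 members fell (Zap70, Lat, Plcg1 and Itpkb; limma, Benjamini-Hochberg adjusted p under 0.05), where 10.3% of all 28939 probe sets fell. In the Dnmt3b-deficient lymphomas 6 of 8 fell, against 10.5% of all, and in pre-tumor thymocytes 4 of 8, against 9.88%. The median member difference was -0.84, -1.44 and -1.01 in these groups, where the median of all probe sets was 0.00, 0.00 and -0.02. Samples did not overlap with normal for 7 of 8 members in each comparison, all on the lower side, where 18.9%, 17.2% and 27.3% of all probe sets lay lower without overlap. The 3 comparisons share the same normal samples, so their counts are not independent. In these bulk samples, fewer cells of a type and less RNA per cell cannot be told apart.

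**Figure D1:**
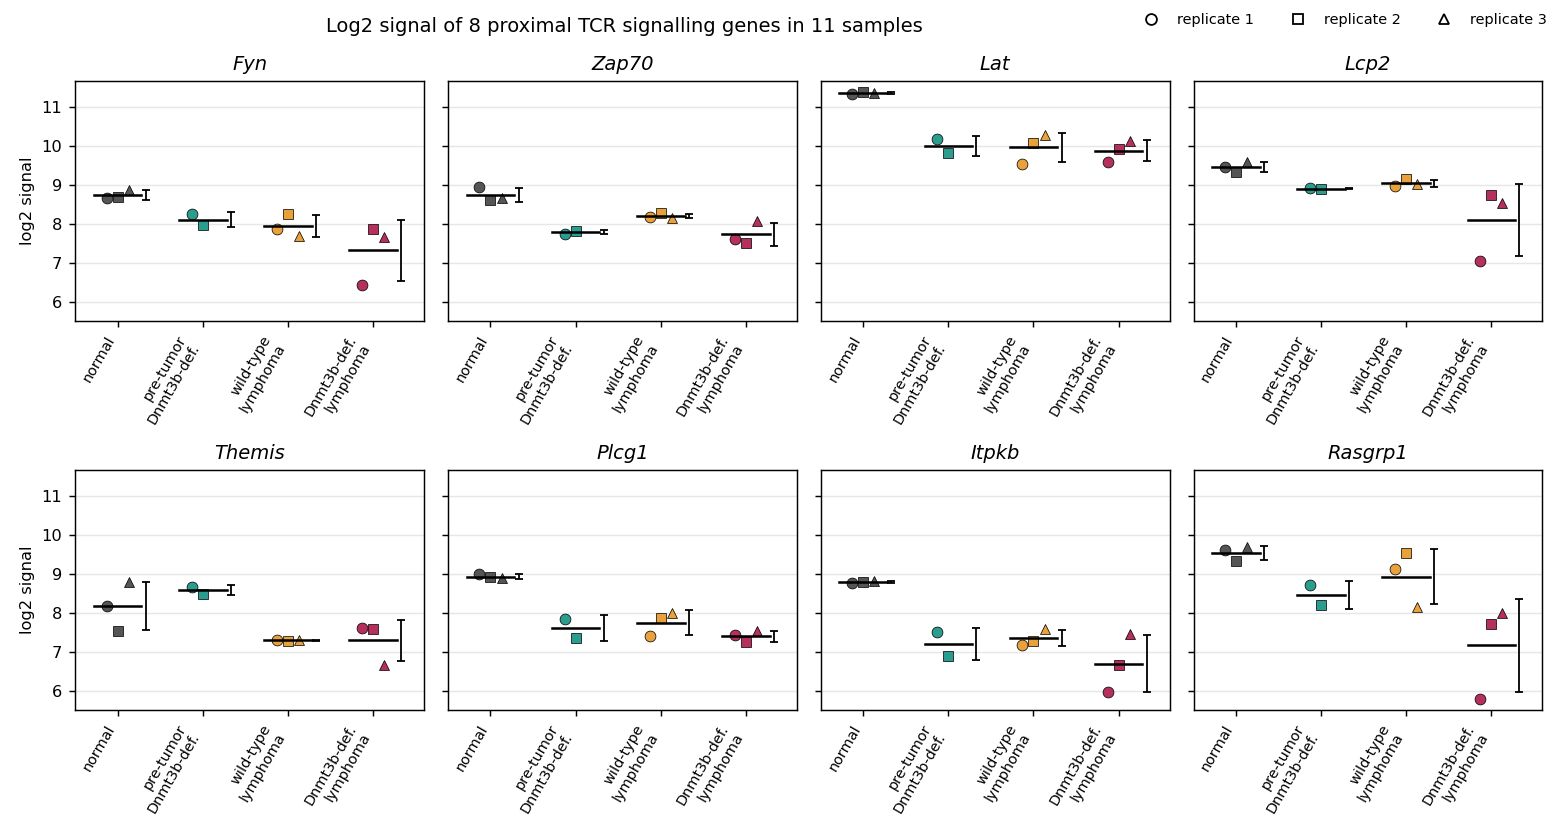
Log2 signal (y axis) of the 8 genes in every sample, by group (x axis). Markers give the replicate number, horizontal lines the group mean and bars 1 SD. Normal samples of Lat, Plcg1 and Itpkb lie close together and above all others, and Dnmt3b-deficient lymphoma replicate 1 is the lowest of all samples for Fyn, Lcp2, Itpkb and Rasgrp1.

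Among the kinases, Fyn had log2 levels of 8.66, 8.69 and 8.88 in normal samples, 7.87, 8.26 and 7.71 in wild-type tumors, 6.44, 7.88 and 7.67 in Dnmt3b-deficient tumors, and 8.25 and 7.98 in pre-tumor samples (replicates in number order, here and below). All 8 samples with the MYC transgene lay below the normal ones, and replicate 1 of the Dnmt3b-deficient lymphomas stood 1.23 log2 units or more below every other sample. Fyn fell by 1.41 in the Dnmt3b-deficient lymphomas (SE 0.36, 2.66-fold, adjusted p = 0.0295). That call was lost without normal replicates 1, 2 or 3 (0.0703, 0.0776 and 0.0835) or with only the 2 groups fitted (0.113), while without the low replicate 1 the difference was -0.97 and passed (0.0142). The differences of -0.80 in wild-type lymphomas (0.18) and -0.63 in pre-tumor thymocytes (0.356) did not pass. Since all groups share 1 estimate of the spread, leaving out Dnmt3b-deficient replicate 1 brought the wild-type difference past the threshold (0.0169), as did fitting only the 2 groups (0.0425).

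Zap70, the kinase that docks on the phosphorylated receptor, measured 8.95, 8.63 and 8.66 in normal samples, 8.19, 8.28 and 8.16 in wild-type tumors, 7.63, 7.51 and 8.08 in Dnmt3b-deficient tumors, and 7.76 and 7.83 in pre-tumor samples. The wild-type lymphomas lay below normal and above all 5 Dnmt3b-deficient samples, lymphoma and pre-tumor. It fell by 1.01 in the Dnmt3b-deficient lymphomas (SE 0.15, 2.01-fold, adjusted p = 0.00338) and by 0.95 in pre-tumor thymocytes (SE 0.17, 0.00878; 0.0599 without pre-tumor replicate 2). The fall of 0.54 in wild-type lymphomas passed narrowly (SE 0.15, 0.042). It was lost without any one of normal replicates 1, 2 and 3 (0.116, 0.0705 and 0.0725) or wild-type replicates 1, 2 and 3 (0.118, 0.0825 and 0.104). It was also lost without Dnmt3b-deficient replicate 1 (0.0569) or pre-tumor replicate 1 or 2 (0.0633 each), and after centring the arrays on their medians (0.0516).

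Lat, the membrane scaffold of the signalling complex, was at 11.33, 11.38 and 11.34 in normal samples, 9.55, 10.08 and 10.27 in wild-type tumors, 9.60, 9.93 and 10.12 in Dnmt3b-deficient tumors, and 10.19 and 9.82 in pre-tumor samples. The normal samples spanned 0.05 log2 units, and the other 8 samples lay more than 1 unit lower and overlapped among their groups. The falls were 1.38 in wild-type tumors (SE 0.21, adjusted p = 0.00399), 1.46 in Dnmt3b-deficient tumors (SE 0.21, 0.0028) and 1.34 in pre-tumor samples (SE 0.23, 0.00838). Both lymphoma calls held in all 19 settings, the reported one included, and the pre-tumor call in 18, the exception being without pre-tumor replicate 2 (0.0767).

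The adaptor Lcp2 gave 9.45, 9.33 and 9.60 in normal samples, 8.98, 9.15 and 9.02 in wild-type tumors, 7.06, 8.75 and 8.54 in Dnmt3b-deficient tumors, and 8.92 and 8.90 in pre-tumor samples. Every sample with the MYC transgene was below every normal sample, and Dnmt3b-deficient replicate 1 was far below the rest. The difference in the Dnmt3b-deficient lymphomas, -1.35 (SE 0.40, 2.55-fold), just missed the threshold (adjusted p = 0.0506). It passed without that low replicate 1, at a smaller difference of -0.82 (0.00385), and without replicate 2 (0.0341). It also passed in 5 settings of normalization, filter and trend (0.0127 to 0.0443). The wild-type difference of -0.41 (0.583) and the pre-tumor difference of -0.55 (0.493) did not pass with all samples, but did without Dnmt3b-deficient replicate 1 (0.0224 and 0.0143). The wild-type difference also passed with only the 2 groups fitted (0.0478), where the Dnmt3b-deficient one did not (0.183).

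Themis, which is made in developing T cells, was the member with its highest mean in pre-tumor thymocytes. Its levels were 8.18, 7.55 and 8.79 in normal samples, 7.30, 7.28 and 7.32 in wild-type tumors, 7.61, 7.60 and 6.68 in Dnmt3b-deficient tumors, and 8.67 and 8.49 in pre-tumor samples. The pre-tumor samples lay within the wide normal range, and both lymphoma groups lay below the pre-tumor samples. No comparison passed for Themis: the differences from normal were -0.87 in wild-type tumors (SE 0.35, adjusted p = 0.133), -0.88 in Dnmt3b-deficient tumors (SE 0.35, 0.135) and 0.40 in pre-tumor samples (SE 0.39, 0.581). Normal replicate 2 was the low normal sample, and without it the lymphoma differences were each -1.19 (0.056 and 0.0536) and the pre-tumor difference was 0.09. Without normal replicate 3, the high one, they were each -0.57 (0.314 and 0.325) and the pre-tumor difference was 0.71 (0.246). Without Dnmt3b-deficient replicate 3, the difference of that group was also -0.57 (0.325).

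Among the enzymes, Plcg1 showed 9.0, 8.91 and 8.88 in normal samples, 7.40, 7.86 and 8.0 in wild-type tumors, 7.43, 7.25 and 7.53 in Dnmt3b-deficient tumors, and 7.84 and 7.37 in pre-tumor samples. All 8 samples with the MYC transgene were clearly below normal and overlapped among themselves. Plcg1 fell by 1.18 in wild-type tumors (SE 0.18, adjusted p = 0.00399), by 1.52 in Dnmt3b-deficient tumors (SE 0.18, 0.00132) and by 1.32 in pre-tumor samples (SE 0.20, 0.00517). It was the only member called in all 19 settings of all 3 comparisons, with adjusted p from 0.000126 to 0.0438.

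Itpkb, the kinase that converts inositol trisphosphate, was at 8.77, 8.78 and 8.81 in normal samples, 7.19, 7.29 and 7.59 in wild-type tumors, 5.99, 6.66 and 7.45 in Dnmt3b-deficient tumors, and 7.50 and 6.91 in pre-tumor samples. The Dnmt3b-deficient lymphomas were spread over 1.46 log2 units and overlapped with both other lower groups. Itpkb fell by 2.09 in the Dnmt3b-deficient lymphomas (SE 0.34, 4.26-fold, adjusted p = 0.00506), in all 19 settings. Its fall of 1.44 in wild-type lymphomas (SE 0.34, 0.0246) was lost without normal replicates 1, 2 or 3 (0.0643, 0.0715 and 0.0637) or wild-type replicates 1 or 2 (0.0849 and 0.0728). The fall of 1.59 in pre-tumor thymocytes (SE 0.39, 0.0262) was lost without the same normal replicates (0.0615, 0.0696 and 0.0613) or pre-tumor replicate 2 (0.198).

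Rasgrp1, the diacylglycerol-dependent RAS activator, stood at 9.60, 9.33 and 9.68 in normal samples, 9.11, 9.52 and 8.15 in wild-type tumors, 5.81, 7.71 and 7.99 in Dnmt3b-deficient tumors, and 8.72 and 8.20 in pre-tumor samples. The wild-type lymphomas overlapped with normal through replicate 2, whereas every Dnmt3b-deficient sample was below every normal one. Rasgrp1 fell by 2.37 in the Dnmt3b-deficient lymphomas (SE 0.60, 5.16-fold, adjusted p = 0.0286). Without Dnmt3b-deficient replicate 1 it fell by 1.69 (0.0321), and without normal replicates 1, 2 or 3 the call was lost (0.0784, 0.0698 and 0.0785), as it was with only the 2 groups fitted (0.0898). The differences of -0.61 in wild-type lymphomas (0.593) and -1.08 in pre-tumor thymocytes (0.34) did not pass.

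**Figure D2:**
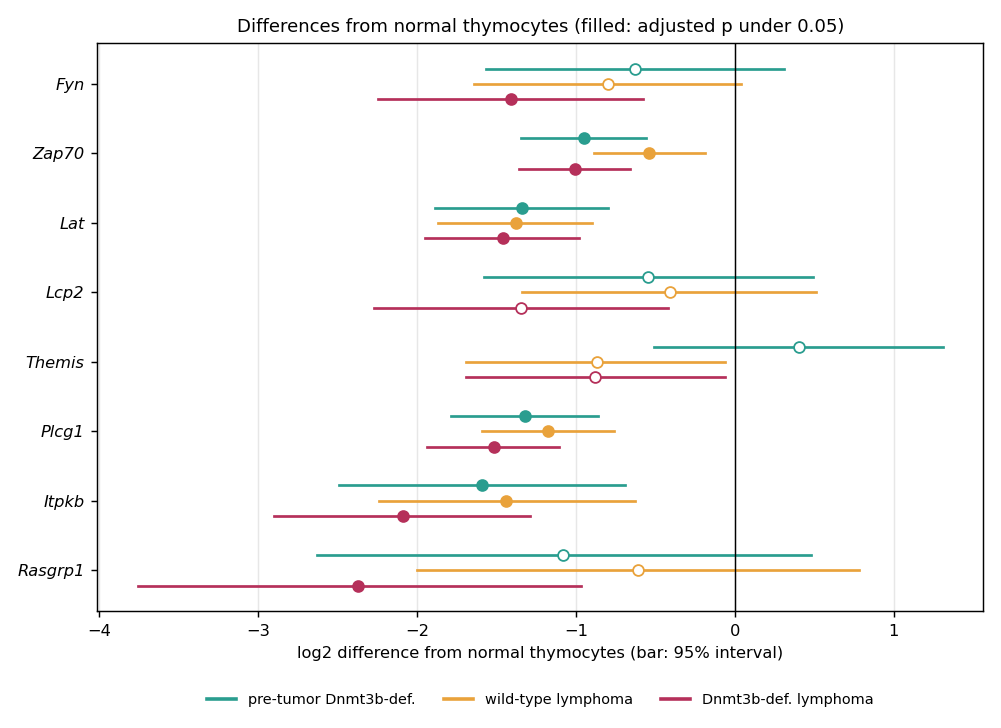
Log2 difference from normal thymocytes (x axis) of each gene (y axis) in the 3 groups with the MYC transgene. Bars are 95% intervals from the limma fit, and filled points passed at an adjusted p under 0.05; all intervals of Lat, Plcg1, Itpkb and Zap70 lie below 0.

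Wild-type and Dnmt3b-deficient lymphomas differ in Dnmt3b and in Teto-Cre, which cannot be told apart. Between them, Rasgrp1, Lcp2 and Zap70 were lower in all 3 Dnmt3b-deficient than in all 3 wild-type lymphomas. By limma none of the 8 members passed (lowest adjusted p = 0.705), though the unadjusted p was under 0.05 for 3. Of all probe sets 0.00691% passed, and 3.34% were lower without overlap, beside 3 of 8 members. The median member difference was -0.54, against 0.00 over all probe sets. Rasgrp1 differed by -1.76 (SE 0.60, 95% interval -3.15 to -0.36, adjusted p = 0.73), from a mean of 8.93 ± 0.70 in wild-type to 7.17 ± 1.18 in Dnmt3b-deficient lymphomas (SD, n = 3 each, limma). The highest Dnmt3b-deficient value, 7.99, was 0.16 below the lowest wild-type value, 8.15. Lcp2 differed by -0.94 (interval -1.86 to -0.01, 0.785) and Zap70 by -0.47 (interval -0.82 to -0.12, 0.705).

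The other members overlapped between the genotypes. Itpkb differed by -0.66 (interval -1.46 to 0.15), Fyn by -0.61 (-1.45 to 0.22), Plcg1 by -0.35 (-0.76 to 0.07) and Lat by -0.08 (-0.57 to 0.41). Themis had the same mean in both, with an interval of -0.82 to 0.81, and differed by 0.31 without Dnmt3b-deficient replicate 3 and by -0.16 without replicate 1. Dnmt3b-deficient replicate 1 was the lowest of its group for 5 members (Fyn, Lat, Lcp2, Itpkb and Rasgrp1). Without it the differences were -1.08 for Rasgrp1 (adjusted p = 0.898), -0.41 for Lcp2 (0.497), -0.30 for Itpkb, -0.17 for Fyn and -0.41 for Zap70, and that of Lat became 0.06. Without wild-type replicate 3, the lowest wild-type sample for Rasgrp1, that gene differed by -2.15 (0.401). The mean of the T cell markers was 8.25 to 8.57 in Dnmt3b-deficient lymphomas, narrowly below the 8.58 to 9.01 of the wild-type ones. That of the double-positive markers was higher in every Dnmt3b-deficient lymphoma (6.48 to 6.80 against 5.63 to 6.39). Of the T cell markers 0 of 6 were called, and of the double-positive markers 0 of 9. Their part in the differences of the members was not tested.

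Set against the pre-tumor thymocytes, which share their genotype, the Dnmt3b-deficient lymphomas had lower Themis, Rasgrp1, Lcp2 and Fyn without overlap (4 of 8 members, where 7.83% of all probe sets were lower without overlap). None passed limma (lowest adjusted p = 0.359), the unadjusted p was under 0.05 for 1, and 0.0691% of all probe sets were called. The differences were -1.28 for Themis (interval -2.19 to -0.37, 0.359), -1.29 for Rasgrp1 (-2.85 to 0.27, 0.607), -0.80 for Lcp2 (-1.83 to 0.23, 0.642) and -0.78 for Fyn (-1.72 to 0.15, 0.603). Itpkb differed by -0.50 (-1.40 to 0.40), Plcg1 by -0.20 (-0.66 to 0.26), Lat by -0.12 (-0.67 to 0.42) and Zap70 by -0.06 (-0.45 to 0.34). Without Dnmt3b-deficient replicate 1, Rasgrp1 differed by -0.61, Lcp2 by -0.27, Fyn by -0.34 and Itpkb by -0.15. Itpkb differed by -0.88 without Dnmt3b-deficient replicate 3, and by -0.21 and -0.80 without pre-tumor replicates 1 and 2. The marker means were also lower in every Dnmt3b-deficient lymphoma than in both pre-tumor samples, for T cells (8.25 to 8.57 against 9.04 to 9.12) and double-positive thymocytes (6.48 to 6.80 against 7.59 to 8.64), and their part was not tested. Stage here goes with age and sorting, since pre-tumor thymi were taken at day 24 and sorted. Tumors were lysed unsorted when disease became apparent.

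Wild-type lymphomas and pre-tumor thymocytes differ in genotype, Cre, stage, age and sorting at once. Themis was lower in all 3 wild-type lymphomas than in both pre-tumor samples by 1.28 on the log2 scale (interval -2.19 to -0.37, adjusted p = 0.411), and Zap70 and Lcp2 were higher, by 0.41 (0.02 to 0.80, 0.611) and 0.14 (-0.90 to 1.17, 1). None of the 8 passed limma, 2 had an unadjusted p under 0.05, and 0.107% of all probe sets were called. Without overlap, 8.22% of all probe sets were lower and 11.3% higher.

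**Figure D3:**
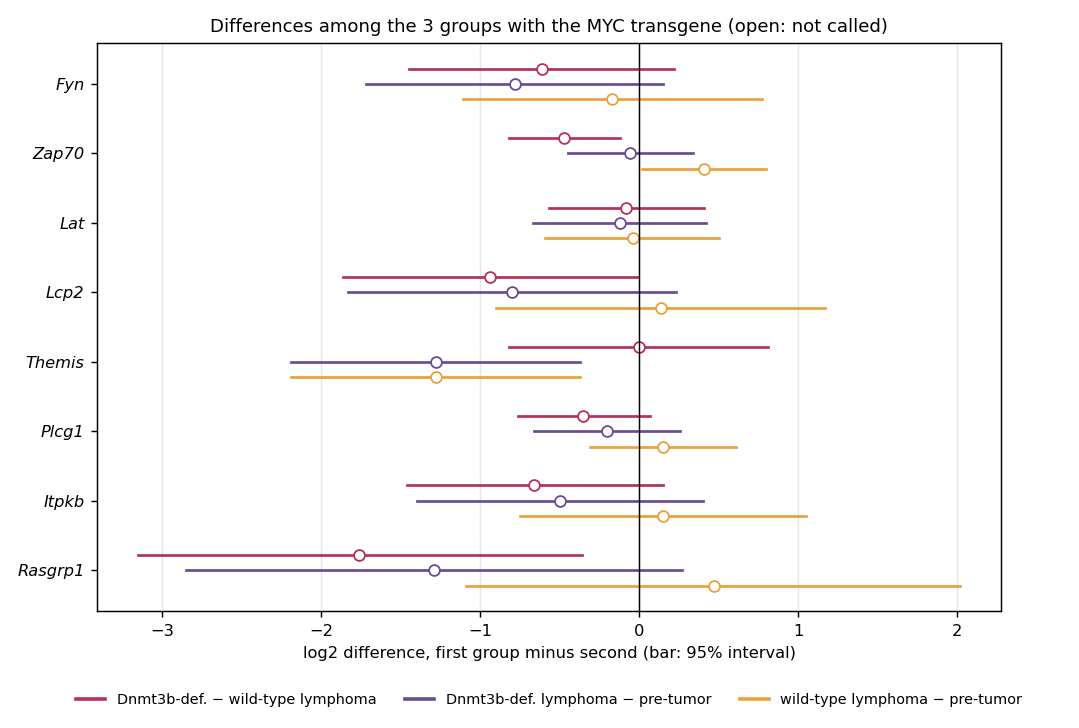
Log2 differences (x axis) of each gene (y axis) for the 3 comparisons among the groups with the MYC transgene, with 95% intervals. No point is filled because no member passed; the Rasgrp1, Lcp2 and Zap70 intervals for the tumor genotypes and both Themis intervals against pre-tumor thymocytes lie below 0.

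Ordered by mean, normal thymocytes came first for 7 members and second for Themis, and Dnmt3b-deficient lymphomas came last for all 8, level with the wild-type lymphomas for Themis. Some of these last places depended on single samples. Without Dnmt3b-deficient replicate 1, Lat was 0.06 above wild-type lymphomas and 0.02 above pre-tumor thymocytes. Leaving out 1 other sample could also move Lat, Zap70, Plcg1 or Themis from last place. Pre-tumor thymocytes were next after normal for Fyn and Lat, and between the lymphoma groups for Zap70, Lcp2, Plcg1, Itpkb and Rasgrp1. Neighbours among the 3 groups with the MYC transgene did not differ beyond the test in any of these orders. The step from normal to the next group was 1.44 for Itpkb, 1.34 for Lat, 1.18 for Plcg1 and 0.54 for Zap70, each called, and 0.63 for Fyn, 0.61 for Rasgrp1 and 0.41 for Lcp2, none called.

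Among the genes of the receptor and its coreceptors, Cd3e, Cd3g, Cd247 and Cd4 fell in all 3 groups. Of 10 receptor and coreceptor genes 7 fell in wild-type tumors (Cd3d, Cd3e, Cd3g, Cd247, Cd4, Cd8a and Cd6), 6 in Dnmt3b-deficient tumors and 4 in pre-tumor samples, with none rising and medians of -1.62, -1.81 and -1.22. Of all probe sets, 10.3%, 10.5% and 9.88% fell in the same order. Cd8b1, Cd28 and Cd5 passed in none of the 3. In wild-type lymphomas the coreceptor chain Cd8a fell by 3.83 and Cd6 fell by 2.71 (adjusted p = 0.0152 and 0.0293, limma here and below). In the Dnmt3b-deficient lymphomas Cd6 fell by 2.98 (0.0194) and the zeta chain Cd247 fell by 1.85 (0.0024). In pre-tumor thymocytes the coreceptor Cd4 fell by 1.60 (0.0102) and Cd3e by 1.20 (0.00418). The Cd6 calls were lost without normal replicates 1, 2 or 3, the wild-type one also without wild-type replicates 1 or 2 (up to 0.102), and the other also without Dnmt3b-deficient replicates 1 or 3 (up to 0.062). The Cd8a call was lost with only the 2 groups fitted (0.0502), and the pre-tumor calls of Cd4 (0.0905) and Cd247 (0.12) without pre-tumor replicate 2.

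Among partner kinases, adaptors and exchange factors, some genes were called higher and some lower. Of 18 measured, 4 rose and 4 fell in wild-type tumors, 1 rose and 7 fell in Dnmt3b-deficient tumors and 2 rose and 3 fell in pre-tumor samples, where 9.58%, 9.7% and 9.69% of all probe sets rose and 10.3%, 10.5% and 9.88% fell. The rises in Dnmt3b-deficient tumors and pre-tumor samples were near those shares. The list medians were -0.44, -0.91 and -0.49. Sla2, an adaptor that restrains the receptor, fell in all 3 groups, by 2.26 (0.00084), 2.34 (0.000562) and 1.56 (0.00507). Its relative Sla fell by 1.84 in wild-type lymphomas (0.0126) and fell by 2.30 in Dnmt3b-deficient ones (0.00469). Sh2d1a, the SAP adaptor that links Fyn to SLAM receptors, fell by 2.17 in the Dnmt3b-deficient lymphomas (0.00314). The Tec kinase gene Tec rose by 1.27 in wild-type lymphomas (0.0426), and the adaptor Nck1 rose by 1.07 in pre-tumor thymocytes (0.0165), where its relative Nck2 fell by 1.31 (0.000978). The Tec call was lost without normal replicates 1, 2 or 3, wild-type replicates 1 or 2 or Dnmt3b-deficient replicate 2 (up to 0.138). The Nck1 call was lost without pre-tumor replicate 2 (0.137) and with only the 2 groups fitted.

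The negative regulator Cbl, a ubiquitin ligase, fell in each of the 3 MYC groups. Of 14 genes listed as negative regulators 5 fell in wild-type tumors, 3 in Dnmt3b-deficient tumors and 2 in pre-tumor samples, where 1 rose. The list includes Ptprc, which is not only a negative regulator and differed by 1.49, 0.55 and 1.37 in the same order, none called. With 10.3%, 10.5% and 9.88% of all probe sets falling and 9.69% rising in pre-tumor thymocytes, the pre-tumor counts were near those shares. The medians were -0.34, -0.48 and -0.43. Cbl fell by 0.92 (0.0204), 0.96 (0.0167) and 1.16 (0.0144). Pag1, which anchors the kinase that inhibits Lck and Fyn, fell by 1.27 (0.00494) and 0.99 (0.0123) in the wild-type and Dnmt3b-deficient lymphomas. Dok2, an adaptor that dampens RAS, fell by 1.32 (0.0365) and 1.70 (0.0131) in the same groups. In pre-tumor thymocytes Dok1 fell by 1.07 (0.0143), and the RAS GTPase-activating gene Rasa1 rose by 1.77 (0.0414). The Rasa1 call held in 9 of 19 settings (up to 0.249) and was lost without normal replicates 1 or 2, wild-type replicates 2 or 3, Dnmt3b-deficient replicates 1 or 3, or either pre-tumor replicate. The Dok2 call in wild-type lymphomas held in 10, and was lost without any normal replicate, wild-type replicates 1 or 2, Dnmt3b-deficient replicate 1 or either pre-tumor replicate (up to 0.121). In the Dnmt3b-deficient lymphomas it was lost without their replicate 2 (0.0501), and that of Pag1 with only the 2 groups fitted (0.0671). The Cbl calls in the lymphomas were lost without normal replicates 2 or 3, wild-type replicates 1 or 2 (for the wild-type call) or Dnmt3b-deficient replicate 1 (for the other). Without pre-tumor replicate 2 the pre-tumor calls of Cbl (0.123) and Dok1 (0.108) were lost. With only the 2 groups fitted, Cbl was lost in wild-type lymphomas and pre-tumor thymocytes. In that setting Dok2 in wild-type lymphomas and Rasa1 in pre-tumor thymocytes were lost too.

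Downstream, 17 of 24 genes of the calcium, protein kinase C and RAS arms were measured. Of these, 7 fell and 2 rose in wild-type tumors, 7 fell and 1 rose in Dnmt3b-deficient tumors and 4 fell and 2 rose in pre-tumor samples, with medians of -0.50, -0.44 and -0.38. Beside the shares of all probe sets that fell (10.3%, 10.5% and 9.88%) and rose (9.58%, 9.7% and 9.69%), the rises were near the background. The calcium store sensor Stim1 fell in all 3, by 1.44 (0.00283), 1.49 (0.00217) and 1.02 (0.0175). Nfatc3, a transcription factor that calcium signals activate, fell by 1.07 in wild-type lymphomas (0.00312), and the inositol trisphosphate receptor Itpr2 by 1.03 in Dnmt3b-deficient lymphomas (0.0103). Bcl10 fell by 0.97 in pre-tumor thymocytes (0.0201). The calcineurin subunit Ppp3ca rose by 1.54 in Dnmt3b-deficient lymphomas (0.0189). Malt1, which works with Bcl10 towards NF-kappaB, rose by 1.12 in wild-type lymphomas (0.0269) and 1.46 in pre-tumor thymocytes (0.0163). The wild-type call of Malt1 was lost without normal replicates 1 or 2 or wild-type replicates 1 or 2 (up to 0.106), and the pre-tumor one without either pre-tumor replicate (up to 0.109). Bcl10 lost its call without either pre-tumor replicate or normal replicates 1 or 2 (up to 0.102). Stim1 lost its pre-tumor call without normal replicate 1 or pre-tumor replicate 2 (up to 0.133), and Ppp3ca its call without normal replicates 1 or 3 or Dnmt3b-deficient replicate 1 (up to 0.0619). With only the 2 groups fitted, Malt1 in wild-type lymphomas, Itpr2 (0.0592) and Bcl10 did not pass. No gene of these 4 lists passed when the tumor genotypes were compared, with medians of -0.13 for the receptor, -0.32 for the partners, -0.25 for the negative regulators and -0.05 for the downstream arms.

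Close relatives of the members were tested where measured (14 of 16), since B and myeloid cells use several of them in the same roles. Of the 14, 1 rose in pre-tumor thymocytes, near the 9.69% of all probe sets that rose there. In the wild-type, Dnmt3b-deficient and pre-tumor groups 2, 2 and 1 fell, near the shares of all probe sets that fell (10.3%, 10.5% and 9.88%). In wild-type lymphomas the falls were those of Rasgrp2, by 1.74 (0.0121), and Itpkc, by 0.65 (0.0121, and 0.0613 with only the 2 groups fitted). In Dnmt3b-deficient lymphomas Rasgrp4 fell by 1.04 (0.0406) and Itpkc by 0.55 (0.0219). In pre-tumor thymocytes Itpkc fell by 0.51 (0.0481), and Blnk, the B cell counterpart of Lcp2, rose by 0.84 from 3.89 to 4.74 (0.0349). The Blnk level in normal thymocytes was near the floor of 3.32. The pre-tumor call of Itpkc held in 6 of 19 settings (up to 0.241), being lost without any of 9 samples (all but wild-type replicates 1 and 2), with only the 2 groups fitted, after median centring and with a trend. Blnk was lost without normal replicates 1 or 2, any wild-type replicate, Dnmt3b-deficient replicate 3 or pre-tumor replicate 1, and with only the 2 groups fitted (up to 0.17). Rasgrp4 was lost without any normal or Dnmt3b-deficient replicate or wild-type replicate 2 (up to 0.119), and Itpkc in the Dnmt3b-deficient lymphomas without normal replicates 1 or 3 or Dnmt3b-deficient replicates 2 or 3 (up to 0.0772). The list medians were -0.26, -0.24 and -0.27. Between the tumor genotypes none passed.

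**Figure D4:**
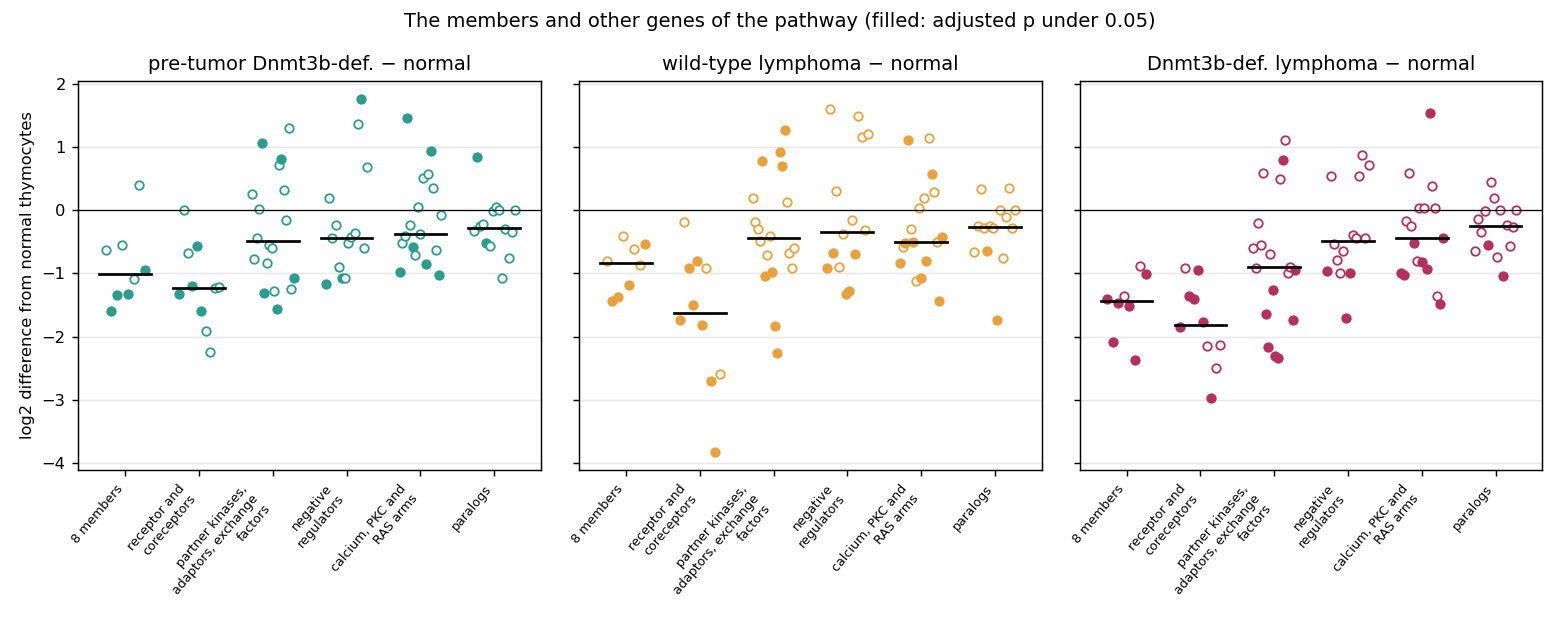
Log2 difference from normal thymocytes (y axis) of the 8 members and of 5 gene lists (x axis), 1 point per gene, in each group with the MYC transgene. Filled points passed at an adjusted p under 0.05 and lines are medians; the receptor list has the lowest median in each panel, and the paralogs have the median nearest 0.

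Markers of other cell types were low throughout. The mean of 12 macrophage and monocyte markers was 4.86 to 5.11 in normal thymocytes, 4.16 to 4.37 in pre-tumor thymocytes, 4.54 to 5.58 in wild-type lymphomas and 4.28 to 4.89 in Dnmt3b-deficient lymphomas. In each comparison with normal 3 of the 12 fell, and 1 rose in wild-type lymphomas. B cell markers (7 measured, Cr2 at the floor throughout) stayed between 3.75 and 4.53 in all samples, and NK cell markers (6, Klrd1 at the floor) between 4.16 and 4.86, with 1 NK cell marker called higher in wild-type lymphomas. Stroma and endothelium markers (10, Dcn at the floor) were 4.98 to 5.06 in normal thymocytes and 4.50 to 4.78 in the other samples, with 4, 2 and 2 called lower in the wild-type, Dnmt3b-deficient and pre-tumor groups. Erythroid markers (3 of 6 measured) lay between 3.98 and 4.97, with 1 called lower in Dnmt3b-deficient lymphomas. By contrast the T cell list had 6, 6 and 3 of its 6 genes called lower, and the double-positive list 8, 7 and 6 of 9. Of all probe sets, 10.3%, 10.5% and 9.88% were called lower and 9.58%, 9.7% and 9.69% higher in the same order. The T cell list shares Cd3d, Cd3e, Cd3g and Cd247 with the receptor list, and the double-positive list shares its coreceptor chains. The part of these shifts in the falls of the members was not tested.

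**Figure D5:**
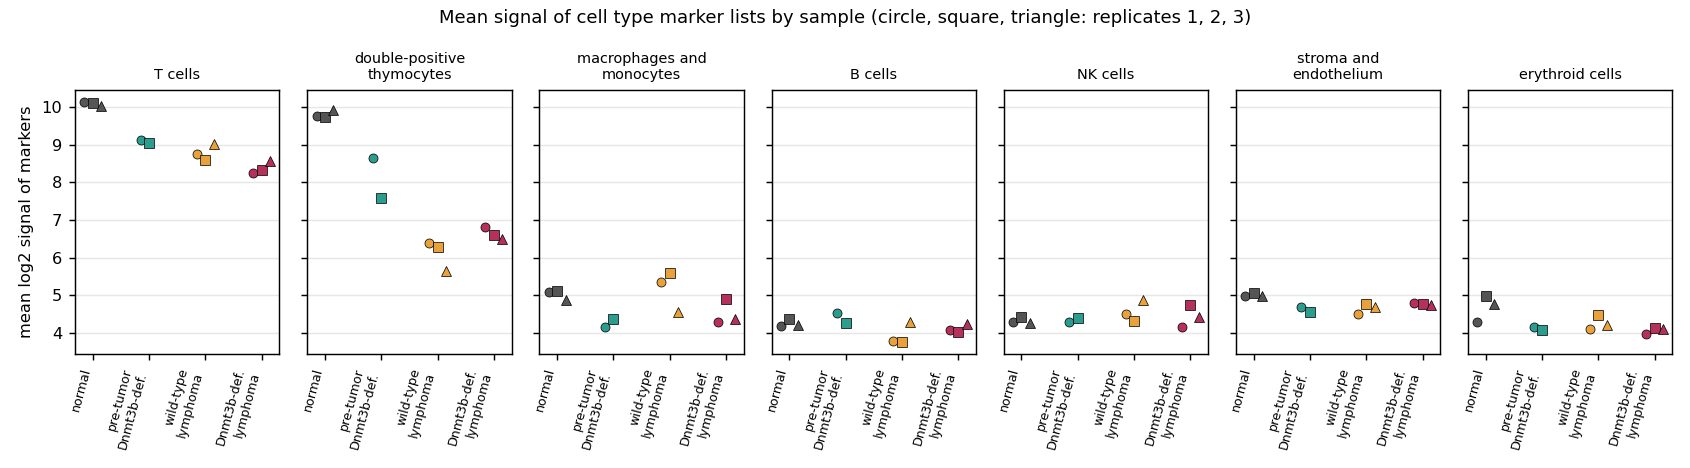
Mean log2 signal (y axis) of each cell type marker list in every sample, by group (x axis), with circles, squares and triangles for replicates 1, 2 and 3. The T cell and double-positive lists step down from normal thymocytes, while the other 5 lists stay between 3.75 and 5.58.

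Over the 11 samples, other genes followed single members closely. The samples share their groups, so differences between groups enter these correlations. They carry no p, and the 3 highest Pearson r per member are given. Plcg1 was most like Mxd4 (r = 0.994), Lrrc61 (0.994) and Mau2 (0.993), and Lat like Hnrnpul1 (0.992), Slc44a2 (0.991) and Plekhm1 (0.990). Itpkb was nearest to Snord61 (0.989), Septin1 (0.986) and Tmc8 (0.984), and Zap70 to Gak (0.958), Tnrc18 (0.958) and Vgll4 (0.957). Fyn and Rasgrp1 shared Itm2a as the most alike gene (0.977 and 0.969), followed by Prkcb (0.965) and Itpr2 (0.963) for Fyn and by Cflar (0.965) and Cd52 (0.951) for Rasgrp1. Lcp2 was nearest to Etv3 (0.957), Fyn (0.952) and Rassf2 (0.951), and Themis to Mier1 (0.955), Gsk3b (0.931) and Zscan29 (0.929).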

How the data were processed

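Expression was measured with 1 whole-transcript array per sample. The deposited table holds log2 signals. Partek and RMA are named in the submitters' processing notes, with no version or role. The genome build of the array annotation is not stated in these notes, and RefSeq windows are from GRCm38.p6. Arrays have no read depth, and their number limits the precision. Of 35512 probe sets, the 6573 with the lowest IDs, which the annotation pairs with no gene, were left out, leaving 28939 (21789 with 1 symbol, 1621 with several, 5529 with none).

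A linear model with 1 mean per group over all 11 samples was fitted with limma 3.58.1 in R 4.3.3 (eBayes without trend). The same fit was also tested on simulated data. The 6 comparisons were adjusted by Benjamini-Hochberg over all probe sets, with a threshold of 0.05. Prior degrees of freedom were 0.46, beside 7 residual. Adjusted p-values are from limma. Where a gene of a list had several probe sets, the one with the highest mean was used. Genes named from a list are up to 3 past the threshold with the largest difference per comparison, and the receptor list's calls in wild-type lymphomas are all named. Alternatives were new quantile normalization, median centring, filters on floor and dim probe sets, a trend, only the groups compared, the replicate number as a block, and leaving out each sample. Counting a gene only where all its probe sets pass changes nothing here, since each member has 1. The members, the lists and the tests were chosen with earlier results of these data known.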

Additional observations from a re-analysis of the deposited data

How the results depend on the processing

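Members called were counted again under 7 other settings and without each sample. Against normal thymocytes, leaving out single samples gave 2 to 5 members in wild-type lymphomas, 4 to 7 in Dnmt3b-deficient lymphomas and 1 to 5 in pre-tumor thymocytes, beside 4, 6 and 4 reported. With only the 2 groups fitted, the counts were 6, 4 and 4, and under the 5 settings of normalization, filter and trend 3 to 4, 7 and 4. In wild-type lymphomas the low count came without any normal replicate or wild-type replicates 1 or 2 (Lat and Plcg1 kept their calls). In Dnmt3b-deficient lymphomas it came without any normal replicate (Zap70, Lat, Plcg1 and Itpkb kept theirs). In pre-tumor thymocytes it came without pre-tumor replicate 2, which left 1 sample in that group. No member was called in the 3 comparisons among the groups with the MYC transgene under any of these settings. Fewer samples lower the residual degrees of freedom, and a group left with 1 sample is assumed to vary like the others.

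Replicate numbers are shared across groups, and the labels do not say whether samples were paired. Deviations from the group means correlated above 0.1 in 3 of 15 same-numbered pairs and in 13 of 30 other pairs. Deviations within such small groups depend on each other, so these values cannot decide whether samples were paired. With the replicate block, 3, 4 and 3 members were called in wild-type lymphomas, Dnmt3b-deficient lymphomas and pre-tumor thymocytes (limma). The calls lost were Zap70 in wild-type lymphomas (adjusted p = 0.0914), Fyn (0.0589) and Rasgrp1 (0.0749) in Dnmt3b-deficient lymphomas and Itpkb in pre-tumor thymocytes (0.0657), and the Itpkb difference between wild-type lymphomas and pre-tumor thymocytes, 0.15, became -0.02. Other signs that turned were all of uncalled differences when 1 sample was left out. Between the tumor genotypes Lat ranged from -0.29 to 0.07 and Themis, reported at 0 after rounding, from -0.16 to 0.31. Between Dnmt3b-deficient lymphomas and pre-tumor thymocytes Zap70 ranged from -0.22 to 0.06, Lat from -0.31 to 0.06 and Plcg1 from -0.43 to 0.04. Between wild-type lymphomas and pre-tumor thymocytes Lat ranged from -0.22 to 0.17, Plcg1 from -0.09 to 0.38 and Itpkb from -0.14 to 0.45. The cause was not tested. Of 42 calls of other genes named from the lists, 16 held in every setting and 26 were lost in at least 1. With the block, those lost were Cd6, Malt1 and Tec in wild-type lymphomas, Itpkc and Rasgrp4 in Dnmt3b-deficient lymphomas, and Bcl10, Dok1, Itpkc, Malt1, Nck1, Rasa1 and Stim1 in pre-tumor thymocytes.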
